A study of Lytechinus variegatus with 8 samples.

Results

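The genes described here are the receptor tyrosine kinases, growth factor ligands and related proteins of the sea urchin Lytechinus variegatus, in its primary and secondary spines. They were chosen by product name, with patterns for fibroblast, vascular endothelial, epidermal and platelet-derived growth factor names, insulin receptor and insulin-like names, ephrins and receptor tyrosine kinases. The patterns found 61 of the 26814 genes in the deposited table. Of these, 37 carried the name of a receptor or a ligand, and 24 carried another name that the same words catch. The latter are 9 nephrins, whose name contains the letters of ephrin, 7 acid labile subunits, 3 insulin-like growth factor-binding proteins, 3 substrates of receptors and 2 further proteins. A tyrosine kinase domain was annotated in 26 of the 61 genes, and in 97 genes of the whole table.

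Receptor tyrosine kinases span the cell membrane, bind a secreted or membrane-bound ligand outside the cell and phosphorylate tyrosines inside it, on themselves and on adaptor proteins. In sea urchin embryos, vascular endothelial growth factor from the ectoderm guides the skeleton-forming mesenchyme through its receptor, and fibroblast growth factor signalling also takes part in skeleton formation. Eph receptors bind ephrins that are anchored in the membrane of a neighbouring cell, and are known for cell sorting and boundary formation.

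Spines were taken from 4 wild-caught animals, genotype wild type, all of the white-and-green color morph. Each animal gave 1 library of 50 primary spines and 1 library of 100 secondary spines, so that there are 4 libraries per group and 8 in all. A library thus mixes the cells of many spines of 1 animal, and the labels list no treatment. No age of the animals is given. Messenger RNA was sequenced, and libraries held 9252184 to 10902546 counted reads. Lists of marker genes for cilia, muscle, nervous system, skeletogenic cells, pigment cells, coelomocytes and collagen all had reads in every library. The largest gap was in cilia genes, of which 40 of 50 tested were higher in secondary spines and 0 lower. Their summed level was 635 to 1259 CPM in primary and 2785 to 3426 CPM in secondary spine libraries. Summed nervous system markers did not overlap either and were lower in secondary spines, at 2666 to 3304 CPM in primary and 1958 to 2480 CPM in secondary libraries. Of 22 tested, 1 was called higher and 1 lower. Over all genes, the same test called 5.88% higher and 1.93% lower. The median log2 fold change of the 22 nervous system markers, secondary minus primary, was 0.20, so the lower sum does not hold for the typical nervous system marker. In whole-spine RNA, fewer cells of a type and less RNA per cell cannot be told apart. CPM (counts per M reads) are relative to the TMM-scaled library size, and a value after ± is an SD over 4 libraries for a level and a standard error for a log2 fold change. Libraries are listed in the order of animals 1 to 4.

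Between spine types, 3 genes of the group were called with group as the only term and 10 with the animal as a block, which uses the pairing of the libraries. In each test the share was close to that of all genes. Reads sufficed to test 44 of the 61 genes, and edgeR's quasi-likelihood test with group as the only term called 2 of them higher and 1 lower in secondary spines at a Benjamini-Hochberg adjusted p below 0.05 (background of all genes tested, 5.88% higher and 1.93% lower). That is 6.82% of those tested, against 7.81% of all 16788 genes tested. The 2 higher genes were the Eph receptors LOC121427308 and LOC121428087, and the lower gene was the fibroblast growth factor LOC121429921. At an unadjusted p below 0.05 the counts were 3 higher and 8 lower. The share of all genes at that bound was not computed, so these counts have no background to be read against. With the animal as a block, 3 genes were called higher and 7 lower, 22.7% of those tested against 24.1% of all genes. By direction, 12.4% of all genes were called higher and 11.7% lower in that blocked test. Without animals 1, 2, 3 and 4 the blocked test called 1, 1, 2 and 6 of these genes higher and 5, 5, 6 and 6 lower. The median log2 fold change, secondary minus primary, was -0.118 over the 44 genes and -0.026 over all genes tested. Among the 29 tested genes with a receptor or ligand name, the group-only test called 3 genes (10.3%) and the blocked test called 2 higher and 6 lower (27.6%). The 4 primary and 4 secondary libraries did not overlap in 5 of the 44 genes (11.4%), against 15.2% of all genes. In 4 of these 5 genes the secondary libraries were the higher ones, namely 3 Eph-named genes and the ephrin, and in 1 the lower ones (background 9.47% and 5.69%).

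**Figure D1:**
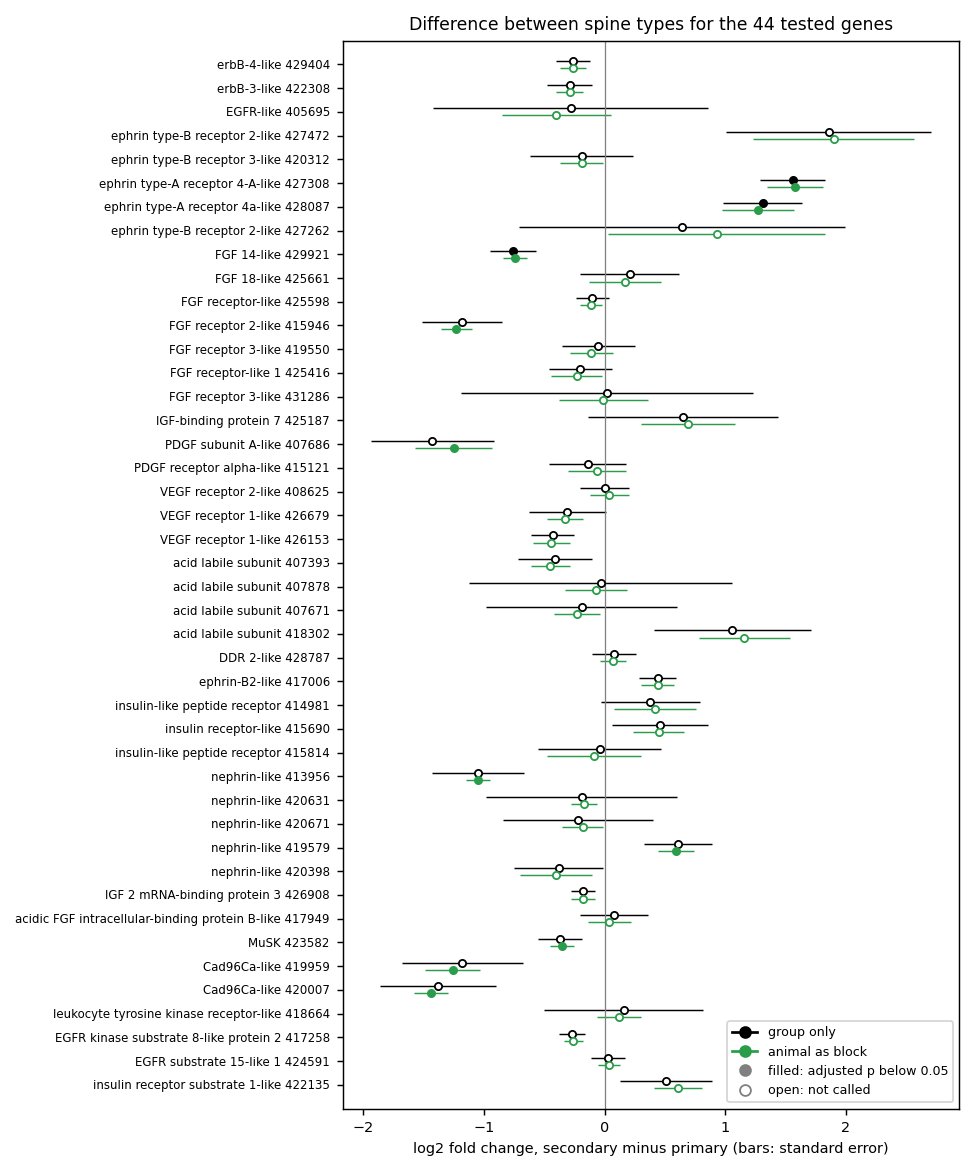
Log2 fold change, secondary minus primary spines, with its standard error for each of the 44 tested genes (named by product and the last digits of the gene symbol), in the test with group only (black) and with the animal as block (green). Filled points mark an adjusted p below 0.05, namely 2 higher and 1 lower with group only, and 3 higher and 7 lower with the block.

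The 17 genes that were not tested had 0 to 153 reads over the 8 libraries together, and 1 of them, LOC121427314, had 0 reads. They were 3 Eph-named genes, 2 insulin-like peptide receptors, 3 Cad96Ca-like receptors, 2 insulin-like growth factor-binding proteins, 3 acid labile subunits and 4 nephrins. A gene that passed the filter only through the group where it was high had to differ, so counts over the tested genes do not stand for all 61.

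Levels between genes are compared here only as deposited FPKM, which are per length. Averaged over the 8 libraries, the tested genes had a median of 4.74 FPKM, against 5.22 FPKM over all tested genes. A mean of 5 FPKM or more was found in 21 of the 44 genes, and a mean under 1 FPKM in 6. Among genes with a receptor or ligand name the highest mean was that of the muscle-specific kinase-like LOC121423582 at 62.0 FPKM, followed by the erbB-4-like LOC121429404 at 50.5 FPKM, the FGF receptor LOC121425598 at 22.7 FPKM, the erbB-3-like LOC121422308 at 14.2 FPKM and the FGF 14-like LOC121429921 at 12.5 FPKM. LOC121423582 had 43.6 to 84.6 FPKM and LOC121429404 had 42.4 to 62.5 FPKM, so these neighbours in the order overlapped across libraries. LOC121425598, at 18.7 to 26.7 FPKM, lay below both in every library and overlapped LOC121422308, at 10.1 to 18.8 FPKM, by a narrow margin. The Eph-named genes had means of 0 to 3.17 FPKM and the insulin receptors 0.139 to 1.79 FPKM.

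**Figure D2:**
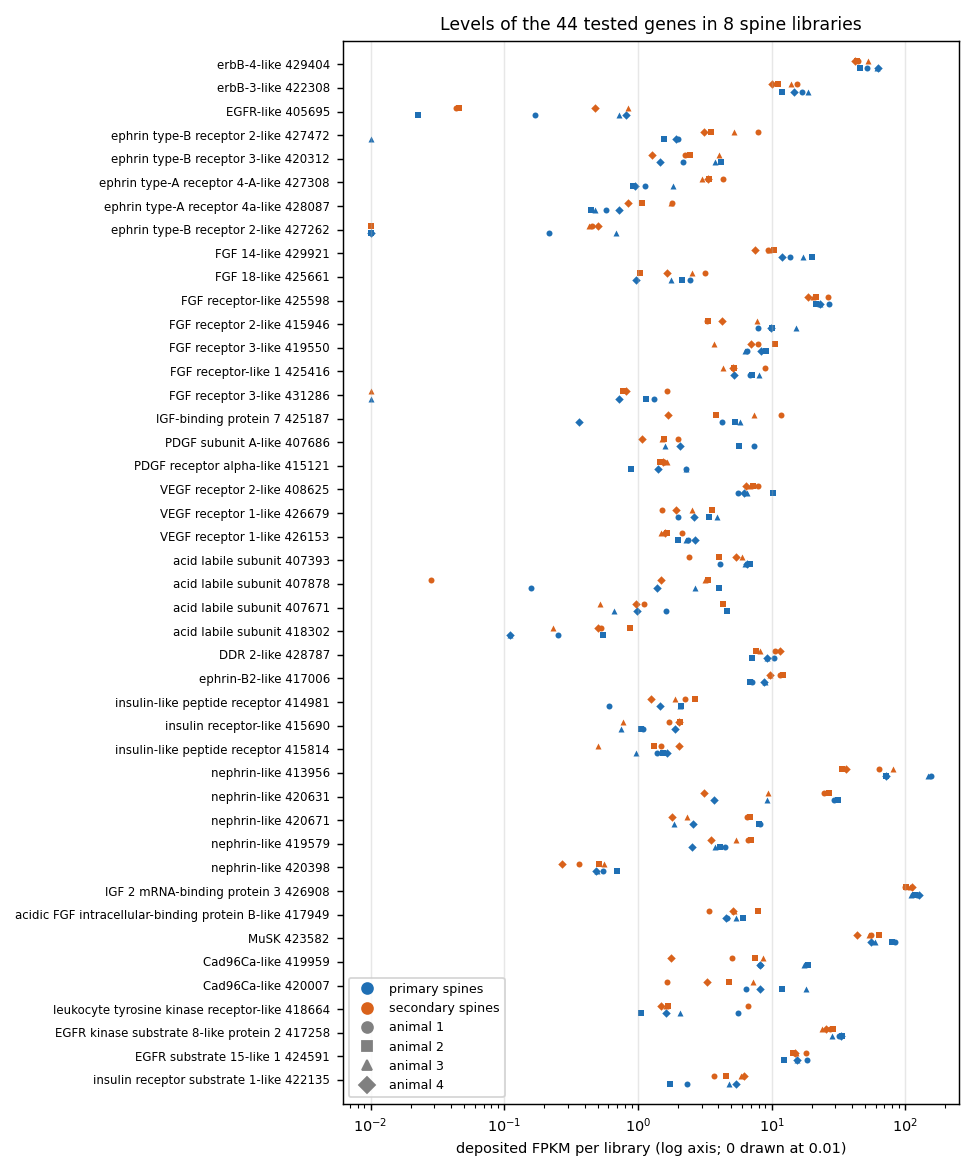
Deposited FPKM (log axis, 0 drawn at 0.01) of the 44 tested genes in each of the 8 libraries, colored by spine type, with a marker shape for each animal and genes grouped by role and labelled with the last digits of the gene symbol. The erbB-4-like LOC121429404, the muscle-specific kinase-like LOC121423582 and the FGF receptor LOC121425598 sit above 10 FPKM in every library, while most Eph-named genes sit below 5 FPKM.

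A single gene of the table carried an ephrin domain, the ephrin-B2-like LOC121417006 (chromosome 6, 11820260 to 11826542, reference assembly Lvar_3.0). It had 31.9, 30.9, 39.4 and 39.6 CPM in primary spines and 51.6, 54.1, 43.8 and 43.1 CPM in secondary spines. Every secondary library was above every primary library, with the wider gap in animals 1 and 2. The log2 fold change of 0.44 ± 0.15 did not pass the test (edgeR adjusted p = 0.126, and 0.0615 with the animal as block).

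Of 8 genes named as Eph receptors, 5 carried a domain particular to that family, and all 5 lie on chromosome 14. LOC121427308 (31088603 to 31137173, minus strand) and LOC121428087 (32548043 to 32584165, plus strand) were annotated with a tyrosine kinase domain, fibronectin type III and SAM domains and an Eph transmembrane domain, and both matched the Eph receptor EphB2 in Swiss-Prot although their product names are ephrin type-A receptor 4. LOC121427262 (31279499 to 31315979, minus strand) and LOC121427472 (32355424 to 32386460, plus strand) had the ligand-binding domain alone. The former lies 142325 bases from LOC121427308, with 0 genes starting between them. LOC121427314 (32534070 to 32575793, plus strand) had 0 reads and shares 27751 bases with LOC121428087 on the same strand. LOC121427308 and LOC121427262 are followed on the minus strand by the PI3-kinase-like LOC121427190 and the phosphatase PTPN11-like LOC121427246. The PTPN11-like LOC121427160 and PI3-kinase-like LOC121427354 precede LOC121427472 and LOC121428087 on the plus strand, a mirrored order. Whether some of these models are pieces of 1 receptor gene, or the mirrored sets copies of each other, was not tested. The Eph results may thus not come from independent receptors. The other 3 Eph-named genes had a kinase domain and matched other receptors in Swiss-Prot, LOC121420312 the fly receptor Cad96Ca, and LOC121415434 and LOC121416116 the receptor Ret.

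LOC121427308 (ephrin type-A receptor 4-A-like) was higher in secondary spines. Its levels were 5.27, 4.29, 8.44 and 4.49 CPM in primary spines and 20.5, 15.9, 14.2 and 15.6 CPM in secondary spines. All secondary libraries lay well above the highest primary library, which was that of animal 3. Its log2 fold change was 1.56 ± 0.27 (edgeR adjusted p = 0.00928, and 0.00281 with the block). It was between 1.44 and 1.91 under all alternatives, and the call held whichever library was left out, with adjusted p of 0.00791 to 0.0325.

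LOC121428087 (ephrin type-A receptor 4a-like) was also called higher, with less margin. It had 3.87, 2.99, 3.16 and 4.91 CPM in primary spines and 12.2, 7.22, 12.1 and 5.62 CPM in secondary spines. The groups did not overlap, but in animal 4 the pair differed by 0.18 on the log2 scale, against 1.15 to 1.78 in the other animals. The log2 fold change was 1.31 ± 0.33 (edgeR adjusted p = 0.0490, and 0.0200 with the block). The call was lost when any library except secondary library 4 was left out, with adjusted p of 0.109, 0.124, 0.112 and 0.0588 without primary libraries 1 to 4 and 0.137, 0.0748 and 0.128 without secondary libraries 1 to 3. The log2 fold change was 1.15 to 1.49 without 1 library. The blocked call was likewise lost without animals 1, 2 and 3 (edgeR adjusted p = 0.0952, 0.0651 and 0.0735) and held without animal 4 (0.00293).

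LOC121427472 (ephrin type-B receptor 2-like) had 2.15, 1.69, 0 and 2.14 CPM in primary spines and 8.73, 3.86, 5.76 and 3.43 CPM in secondary spines. All secondary libraries were above all primary ones, and no read was found in the primary library of animal 3. Its log2 fold change of 1.86 ± 0.85 did not pass (edgeR adjusted p = 0.283, and 0.0884 with the block). LOC121427262 had 0 to 2.00 CPM in primary spines and 0 to 1.49 CPM in secondary libraries, with 0 in 3 of the 8 libraries, and its groups overlapped.

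LOC121420312, the Eph-named gene that matched Cad96Ca, had 14.3 ± 6.29 CPM in primary spines and 12.6 ± 5.81 CPM in secondary spines (-0.19 ± 0.43 on the log2 scale, edgeR adjusted p = 0.907). The cilia markers rose in the same libraries as LOC121427308 and LOC121428087, with 40 of 50 called and no overlap of their summed levels. Their part in the Eph result was not tested. The sources used here do not state how multiply aligned reads and strand were handled in counting, which leaves the split of reads among related or overlapping genes uncertain.

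**Figure D3:**
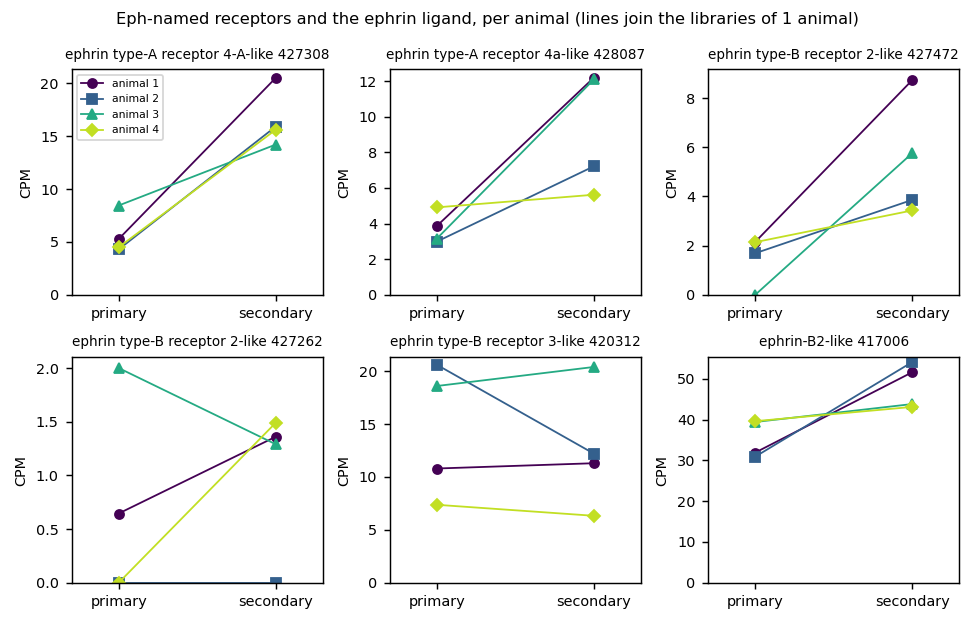
CPM of 5 Eph-named genes and the ephrin-B2-like gene in primary and secondary spines, each axis starting at 0, with a line joining the 2 libraries of 1 animal. In the LOC121427308 panel all 4 lines rise, from 4.29 to 8.44 CPM up to 14.2 to 20.5 CPM, while the LOC121420312 panel has lines in both directions.

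Among fibroblast growth factors, LOC121429921 (FGF 14-like, chromosome 1, 11710296 to 11737449), which matches FGF16 in Swiss-Prot, was the ligand called lower in secondary spines. Its levels were 51.4, 74.7, 64.1 and 45.5 CPM in primary spines and 35.2, 39.5, 36.3 and 28.3 CPM in secondary spines. The groups did not overlap, and every animal had the lower level in its secondary spines, with log2 differences of -0.54, -0.91, -0.81 and -0.68. The log2 fold change was -0.76 ± 0.19 (edgeR adjusted p = 0.0441, and 0.00218 with the block). Without 1 library the group-only call held only when primary library 4 was left out. The adjusted p was 0.0728, 0.106 and 0.105 without primary libraries 1 to 3 and 0.107, 0.0751, 0.0944 and 0.117 without secondary libraries 1 to 4, with log2 fold changes of -0.87 to -0.62. The blocked call held without each animal, with adjusted p up to 0.0198. The other FGF ligand, LOC121425661 (FGF 18-like), had 7.35 ± 2.52 and 8.47 ± 3.84 CPM and did not pass (0.21 ± 0.41, edgeR adjusted p = 0.894).

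LOC121425598, the FGF receptor with immunoglobulin, fibronectin and kinase domains, had 223, 179, 192 and 194 CPM in primary spines and 224, 180, 174 and 157 CPM in secondary spines. The groups overlapped, and animals 1 and 2 had almost the same level in both spine types. Its log2 fold change was -0.10 ± 0.14 (edgeR adjusted p = 0.812). Its neighbour on chromosome 12, 5747 bases away, is LOC121425416, named for FGF receptor-like 1, a relative that has the immunoglobulin domains and no kinase domain. That gene had 15.3 ± 2.44 and 13.3 ± 4.58 CPM and did not pass (edgeR adjusted p = 0.800).

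LOC121415946 is named FGF receptor 2-like, but its Swiss-Prot match is the transmembrane receptor Ror, and a kinase domain was the only domain annotated. It had 33.2, 42.4, 63.8 and 42.1 CPM in primary spines and 14.1, 14.1, 33.6 and 18.1 CPM in secondary spines. Each animal was lower in its secondary spines, and the groups overlapped only because secondary library 3 just exceeded primary library 1. The log2 fold change of -1.18 ± 0.33 did not pass with group only (edgeR adjusted p = 0.0701) and was called lower with the block (-1.23 ± 0.13, edgeR adjusted p = 0.000698). Leaving out secondary library 3 gave a call with group only as well (-1.56, edgeR adjusted p = 0.0153). The 2 genes named FGF receptor 3-like, LOC121419550 and LOC121431286, both matched Cad96Ca, and their log2 fold changes of -0.05 ± 0.30 and 0.02 ± 1.21 did not pass (edgeR adjusted p = 0.974 and 0.998).

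The platelet-derived growth factor ligand LOC121407686 (subunit A-like, chromosome 1, 17624470 to 17637283) carries the PDGF/VEGF domain, which only 1 other gene of the table has. It had 20.5, 16.0, 4.43 and 5.77 CPM in primary spines and 5.62, 4.37, 4.27 and 2.99 CPM in secondary spines. The high values were the primary libraries of animals 1 and 2, and in animal 3 the pair was level. It did not pass with group only (-1.43 ± 0.51, edgeR adjusted p = 0.151) and was called lower with the block (-1.25 ± 0.32, edgeR adjusted p = 0.0302). The blocked call was lost without animal 1 (-1.0, edgeR adjusted p = 0.139) and without animal 2 (-1.02, edgeR adjusted p = 0.113).

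No gene of the table was named a vascular endothelial growth factor ligand, but 3 genes were named its receptors, all with immunoglobulin and kinase domains and a match to VEGF receptor 1. LOC121408625 (chromosome 1, 20230039 to 20283425) was the most abundant, with 35.0, 63.2, 40.4 and 39.2 CPM in primary spines and 49.3, 45.3, 43.5 and 40.2 CPM in secondary spines. Its means were level (0.00 ± 0.20, edgeR adjusted p = 0.998), and primary library 2 was the highest of the 8. It shares 5829 bases with the uncharacterized LOC121408636 on the other strand, which had 1490 reads. LOC121426679 had 15.7 ± 4.42 and 12.7 ± 4.77 CPM (-0.31 ± 0.32, edgeR adjusted p = 0.727). LOC121426153 had 17.2 ± 2.19 and 12.7 ± 2.16 CPM and was lower in secondary spines in every animal, by a log2 fold change of -0.43 ± 0.18 that did not pass (edgeR adjusted p = 0.247, and 0.0710 with the block). LOC121415121, named PDGF receptor alpha-like with a match to Ret, had 7.34 ± 2.93 and 6.68 ± 0.395 CPM (edgeR adjusted p = 0.915).

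The erbB-4-like LOC121429404 (chromosome 1, 95166350 to 95207559), a match to the EGF receptor with its ligand-binding, cysteine-rich and kinase domains, had 465, 414, 549 and 571 CPM in primary spines and 403, 394, 483 and 385 CPM in secondary spines. Each animal had somewhat less in its secondary spines, while the groups overlapped. The difference was -0.26 ± 0.14 on the log2 scale (edgeR adjusted p = 0.360, and 0.125 with the block). LOC121405695, which lies 98234 bases away on chromosome 1 and is named EGF receptor-like, had a mean of 0.392 FPKM and at most 3.77 CPM. LOC121422308, named erbB-3-like but matched to the kinase LMTK2, had 105 ± 19.2 and 86.1 ± 17.5 CPM (-0.29 ± 0.19, edgeR adjusted p = 0.505).

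All 5 insulin receptor genes lie on chromosome 5. LOC121415814, LOC121414980 and LOC121414981 follow each other, with gaps of 20704 and 12131 bases and 0 genes starting in either gap, and LOC121415689 and LOC121415690 lie 39361 bases apart. Kinase domains were annotated in LOC121414981 and LOC121415690, and the others held only pieces of the outer part of the receptor. LOC121414981 had 2.58, 8.97, 8.65 and 6.30 CPM in primary spines and 9.60, 11.4, 8.14 and 5.36 CPM in secondary spines. Its groups overlapped, and animals went both ways (0.38 ± 0.41, edgeR adjusted p = 0.743). LOC121415690 had 5.94 ± 2.50 and 8.15 ± 2.94 CPM (0.46 ± 0.40, edgeR adjusted p = 0.654).

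Of the 3 insulin-like growth factor-binding proteins, LOC121425187 (IGF-binding protein 7) was tested. It had 7.53, 9.37, 10.1 and 0.641 CPM in primary spines and 20.7, 6.71, 13.1 and 2.99 CPM in secondary spines. Animal 4 was the lowest in both spine types, and the groups overlapped (0.65 ± 0.79, edgeR adjusted p = 0.780). LOC121425531, with the same product name but a match to the protease HTRA1, was not tested and had 0 to 0.844 CPM in primary spines and 0.407 to 6.55 CPM in secondary libraries. LOC121417060 had 4 reads in all. No gene of the group carried an insulin domain.

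LOC121420007 and LOC121419959 are named for Cad96Ca, a receptor tyrosine kinase known from the fly, and lie on chromosome 8, 2902768 bases apart. LOC121420007 had 16.8, 31.1, 46.9 and 21.7 CPM in primary spines and 4.36, 12.5, 19.3 and 8.61 CPM in secondary spines. LOC121419959 had 18.9, 43.7, 40.1 and 19.1 CPM in primary spines and 11.7, 17.5, 20.4 and 4.13 CPM in secondary spines. In both genes each animal was lower in its secondary spines, and animals 2 and 3 were the high ones in both spine types, so the groups overlapped. With group only neither passed (-1.38 ± 0.48 and -1.18 ± 0.50, edgeR adjusted p = 0.142 and 0.236). With the block both were called lower (-1.44 ± 0.14 and -1.26 ± 0.23, edgeR adjusted p = 0.000588 and 0.0088), also without each animal in turn. Of the 5 genes named Cad96Ca-like, the other 3 had 5 to 153 reads in all and were not tested.

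LOC121423582 (chromosome 11, 27053029 to 27079398) matches the muscle-specific receptor MuSK, which in vertebrates organizes the nerve-muscle junction, and has immunoglobulin, frizzled-type and kinase domains. It had 355, 337, 249 and 234 CPM in primary spines and 233, 268, 228 and 184 CPM in secondary spines. Each animal was lower in its secondary spines, and the groups overlapped. It did not pass with group only (-0.37 ± 0.18, edgeR adjusted p = 0.320), was called lower with the block (-0.35 ± 0.10, edgeR adjusted p = 0.0388), and lost that call when any 1 animal was left out (edgeR adjusted p = 0.149, 0.106, 0.0561 and 0.0924 without animals 1 to 4). Muscle markers, 32 tested, had 5 higher and 1 lower in the group-only test, 8 higher and 6 lower with the block, and summed to 2588 to 3143 CPM in primary spines and 2559 to 3374 CPM in secondary libraries. The summed nervous system markers were lower in secondary spines, while their median log2 fold change was 0.20, as given above. With the block 4 of 22 were called higher and 3 lower. Over all genes tested, 5.88% were called higher and 1.93% lower with group only, and 12.4% and 11.7% with the block. The part of either list in the genes called lower was not tested.

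The discoidin domain receptor LOC121428787, a member of a family of collagen receptors, had 55.9, 37.9, 49.0 and 49.8 CPM in primary spines and 57.3, 40.7, 43.9 and 61.7 CPM in secondary spines. The groups overlapped widely (0.08 ± 0.18, edgeR adjusted p = 0.912). LOC121418664, named leukocyte tyrosine kinase receptor-like with a match to ALK, had 30.8, 5.78, 11.2 and 8.97 CPM in primary spines and 36.7, 9.25, 9.04 and 8.17 CPM in secondary spines. Animal 1 was far above the other animals in both spine types, and the groups overlapped (edgeR adjusted p = 0.961).

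**Figure D4:**
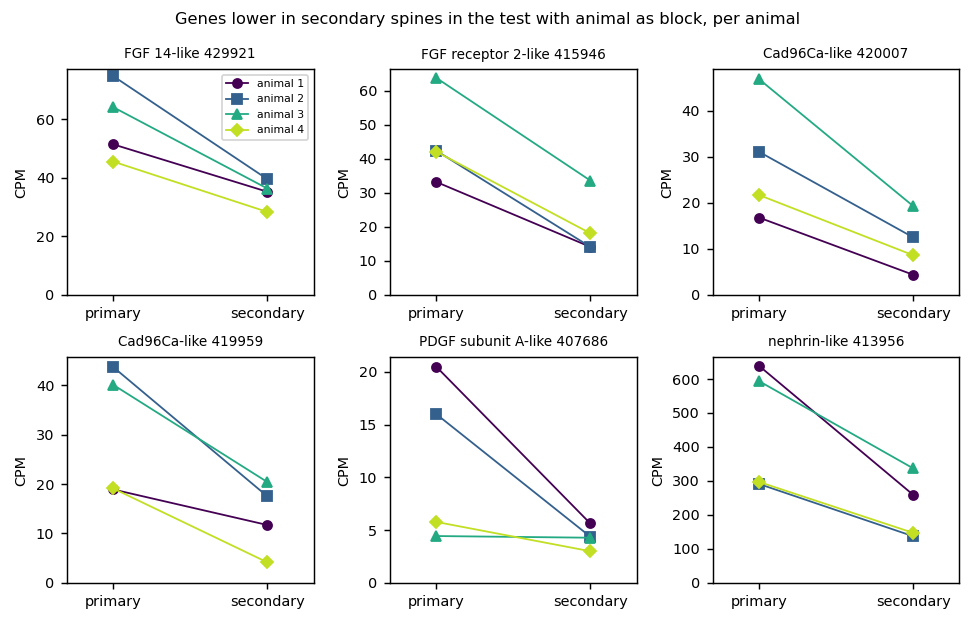
CPM in primary spines and secondary spines of 6 of the 7 genes called lower with the animal as block, each axis starting at 0, with a line joining the 2 libraries of 1 animal. All 4 lines fall in every panel, though that of animal 3 in the LOC121407686 panel is nearly level (4.43 to 4.27 CPM). Only in the FGF 14-like LOC121429921 panel do the groups not overlap.

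Of the receptor substrates, LOC121417258, an EPS8-like protein that couples receptors to the actin cytoskeleton, had 310, 326, 270 and 324 CPM in primary spines and 264, 279, 234 and 247 CPM in secondary spines. Each animal was lower in its secondary spines, and secondary library 2 was above primary library 3. It did not pass (-0.27 ± 0.11, edgeR adjusted p = 0.218, and 0.0572 with the block). LOC121424591 (EPS15-like 1, an endocytic adaptor) had 71.4 ± 11.1 and 73.1 ± 7.39 CPM (edgeR adjusted p = 0.962). The insulin receptor substrate 1-like LOC121422135 had 17.0 ± 8.65 and 24.2 ± 5.53 CPM and was higher in the secondary spines of every animal without passing (0.51 ± 0.38, edgeR adjusted p = 0.572, and 0.0650 with the block).

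Of 9 nephrin-like genes, cell adhesion proteins of the immunoglobulin superfamily and no receptor tyrosine kinases, 5 were tested and 0 called with group only. LOC121413956 (chromosome 4, 36350713 to 36354751) was the most abundant, with 639, 291, 594 and 297 CPM in primary spines and 259, 137, 337 and 147 CPM in secondary spines. Every animal was lower in its secondary spines (log2 differences of -1.30, -1.08, -0.82 and -1.01), while animals 1 and 3 were above animals 2 and 4 in both spine types. It did not pass with group only (-1.05 ± 0.38, edgeR adjusted p = 0.165) and was called lower with the block (-1.05 ± 0.10, edgeR adjusted p = 0.00057), also without each animal.

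LOC121419579, another nephrin-like gene, had 10, 9.17, 8.44 and 5.77 CPM in primary spines and 14.9, 15.8, 12.3 and 7.91 CPM in secondary spines. Each animal was higher in its secondary spines, and the groups overlapped through animal 4. It was called higher with the block alone (0.59 ± 0.15, edgeR adjusted p = 0.0230, against 0.284 with group only). Without animals 1, 2 and 3 that call was lost (edgeR adjusted p = 0.0790, 0.0974 and 0.0565).

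The 7 genes named acid labile subunit, after a serum protein of the insulin-like growth factor-binding protein complex in vertebrates, held leucine-rich repeats. A TIR domain, the signalling domain of Toll-like receptors, was also held by 5 of them. Of the 4 tested, 0 were called in either fit. The most abundant, LOC121407393, had 13.2, 22.0, 20.2 and 21.3 CPM in primary spines and 7.76, 13.0, 19.6 and 17.6 CPM in secondary spines, with overlapping groups (-0.41 ± 0.31, edgeR adjusted p = 0.582). LOC121418302 overlaps a cilia gene, LOC121418301, over 3789 bases on the other strand, and its log2 fold change of 1.06 ± 0.65 did not pass (edgeR adjusted p = 0.469). LOC121426908, an RNA-binding protein named for insulin-like growth factor 2 messenger RNA, had 896 ± 55.5 and 789 ± 45.1 CPM (-0.18 ± 0.10, edgeR adjusted p = 0.373).

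Genes downstream of the receptors were taken from a list. The list of intracellular signalling genes by product name (adaptors, Ras, Raf and MAP kinases, the PI3-kinase branch, phosphatases and inhibitors) held 61 genes, of which 56 were tested. With group only, 0 were higher and 1 lower, 1.79% against 7.81% of all genes. At an unadjusted p below 0.05 the counts were 0 higher and 8 lower, again without a computed share of all genes beside them. The gene called was the small GTPase R-Ras2-like LOC121405824, with 64.6, 57.6, 81.5 and 74.3 CPM in primary spines and 38.0, 41.3, 51.7 and 45.9 CPM in secondary spines. Its groups did not overlap, and the log2 fold change was -0.65 ± 0.16 (edgeR adjusted p = 0.0391, and 0.00259 with the block). The group-only call was held without primary library 2 (adjusted p = 0.0306) or secondary library 3 (0.0463) and lost without any other library, at 0.0646, 0.0831 and 0.0896 without primary libraries 1, 3 and 4 and 0.106, 0.109 and 0.0893 without secondary libraries 1, 2 and 4.

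With the block, 0 genes of that list were called higher and 9 lower (16.1%, against 24.1% of all genes in both directions and 11.7% lower). Along with R-Ras2-like these were both genes named HRas (LOC121417410 and LOC121417405), the adaptor Grb2-like LOC121422185, the phosphatase PTPN11-like LOC121427246, the MAP kinase 3-like LOC121409261, the MAP kinase kinase 1-like LOC121415882, the S6 kinase alpha-3-like LOC121414151 and the inhibitor Spred2-like LOC121418204. Without animals 1 to 4 the lower calls numbered 5, 5, 5 and 7. Tested genes of the same names were not called with the block. The PTPN11-like LOC121427160 had -0.35 ± 0.29 (edgeR adjusted p = 0.424) and the MAP kinase kinase 1-like LOC121415768 had 0.11 ± 0.37 (0.87). The Grb2-like LOC121422493 had -0.25 ± 0.11 (0.148) and the S6 kinase alpha-3-like LOC121413723 had -0.27 ± 0.13 (0.178). LOC121417410 had 88.2 ± 17.0 CPM in primary spines and 58.4 ± 5.15 CPM in secondary spines (blocked log2 fold change -0.58 ± 0.10, edgeR adjusted p = 0.00533). LOC121427246 had 43.2 ± 11.4 and 25.7 ± 5.45 CPM (-0.73 ± 0.14, edgeR adjusted p = 0.00867), and LOC121409261 had 559 ± 45.7 and 431 ± 31.9 CPM (-0.38 ± 0.09, edgeR adjusted p = 0.0207). The median log2 fold change of the list was -0.162 with group only, against -0.026 over all genes.

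In 36 of the 44 tested genes (81.8%) the range of the 4 animals' mean levels on the log2 scale exceeded the difference between spine types, against 80.7% of all genes tested. The range exceeded 2 in 8 genes (18.2%, against 11.9% of all genes). LOC121407878, an acid labile subunit with a TIR domain, had 0.538, 13.7, 8.96 and 4.70 CPM in primary spines and 0.0970, 11.3, 10.9 and 5.10 CPM in secondary spines. Animal 1 was the low one in both libraries, and the range of animal means was 4.04. LOC121407878 shares 3343 bases with the mucin-17-like LOC121409743 on the other strand, which had 270 reads. The nephrin-like LOC121420631 had 66.5, 70.9, 20.7 and 8.55 CPM in primary spines and 56.3, 60.7, 21.6 and 7.03 CPM in secondary spines, so that animals 1 and 2 were above animals 3 and 4 in both spine types. The FGF receptor 3-like LOC121431286 had 0 reads in both libraries of animal 3 and 1.71 to 3.88 CPM in the others. The untested Cad96Ca-like LOC121431024 had 0 reads in both libraries of animals 3 and 4, against 2.80 and 0.897 CPM in the primary and 8.24 and 3.36 CPM in the secondary spines of animals 1 and 2.

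**Figure D5:**
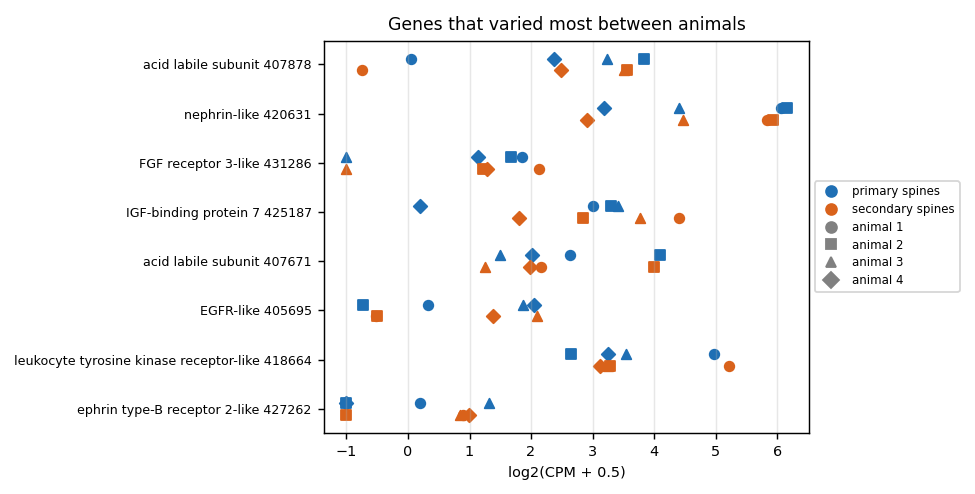
Log2 of CPM plus 0.5 in each library for the 8 tested genes whose animal means ranged over more than 2 on that scale, labelled with the last digits of the gene symbol, with color for spine type and marker shape for animal. Primary and secondary points of 1 animal lie near each other in most genes, as in the nephrin-like LOC121420631, while animals are spread along the axis.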

How the data were processed

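The deposited counts give reads per gene as whole numbers (26814 genes). HISAT2 2.0.5 and featureCounts are named in the submitters' processing notes. The authors' deposited FPKM equal the count divided by gene length and by 1 constant per library, which lay at 0.905 to 0.994 of the library's total count (primary) or 1.062 to 1.082 of it (secondary), so FPKM were used only for the order of genes. All IDs, starts and ends matched the gene table of assembly Lvar_3.0, which gave chromosomes and strands. Product names, domains and Swiss-Prot matches are the deposited table's.

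Counts were tested with edgeR 4.0.16 in R 4.3.3 (TMM scaling, factors 0.8986 to 1.068, filterByExpr, robust quasi-likelihood fit, group only, two-sided, Benjamini-Hochberg over all 16788 genes tested), and the scripts were tested on simulated data. The design text says that both spine types came from the same 4 animals. Deviations from the group means had correlations of 0.733 to 0.811 within a replicate number and of -0.317 to -0.200 across numbers. Such deviations cancel out within a group, so high values within numbers force negative ones across them. From the values within numbers, numbers were taken as animals, and the blocked value stands where it changed a call. No libraries of a group were duplicates (chi-square of 37.5 to 60.9 per gene). The group-only p-values measure the spread between the libraries of 4 animals within each group. The blocked p-values measure the spread of the differences within the 4 animals.

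The genes and lists were chosen with earlier results of these data known. Genes were named if called with group only, if called with the block (up to 8 per direction) or as the most abundant tested gene of a role. Further genes, such as neighbours and those that varied between animals, were named after their values were seen. In the intracellular list, 6 names were excluded after reading them. Alternatives were DESeq2 1.42.0, RLE scaling, library size alone, other filters, a gene length offset and leaving out libraries or animals.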

Additional observations from a re-analysis of the deposited data

Results flagged for a closer look

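Among 88 sets of 4 libraries (44 genes in 2 spine types), 3 had 1 library far from the other 3 by Dixon's criterion, and chance alone gives such a value in about 1 of 20 sets. The acid labile subunit-named LOC121407671 had 15.4 CPM in secondary library 2, against 1.89 to 3.98 CPM in the other secondary libraries. Primary library 2 of the same animal was also the highest of its group, at 16.5 CPM. LOC121407671 shares 3517 bases with the mucin-17-like LOC121409703 on the other strand, which had 420 reads. The leukocyte tyrosine kinase receptor-like LOC121418664 had 36.7 CPM in secondary library 1, against 8.17 to 9.25 CPM in the others, and 30.8 CPM in the primary library of the same animal. The ephrin type-B receptor 2-like LOC121427262 had 0 CPM in secondary library 2, against 1.29 to 1.49 CPM in the others, and 0 CPM in primary libraries 2 and 4. None of these genes was called in either test.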

How the results depend on the processing

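LOC121427308 kept its call and direction under every alternative run. Genes of the group were called 2 higher and 1 lower in the main test. With the replicate block the counts were 3 and 7, with library size alone 2 and 0, with DESeq2 2 and 3, with DESeq2 and the block 5 and 8, with no filter 1 and 0, with a mean CPM of 1 or more 1 and 1, with a gene length offset 1 and 3, and with that offset and the block 3 and 12. In the last of these fits, 12 lower of 44 was a larger share than 2400 of all 16788 genes. Leaving out 1 library gave 1 to 2 higher and 0 to 1 lower, and leaving out 1 animal with the block gave 1 to 6 and 5 to 6. Chosen after seeing the data, receptor and ligand names alone or the group without nephrins gave 6 lower with the block.

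Over all genes, the main 987 higher and 324 lower became 2077 and 1964 with the block, 1225 and 168 with library size alone, 1427 and 705 with DESeq2, 2097 and 1943 with DESeq2 and the block, and 1951 and 2400 with the length offset and the block. The median over all genes, -0.026 on the log2 scale, was 0.139 with library size alone. Leaving out 1 library gave 718 to 877 higher and 158 to 254 lower, and leaving out animals 1 to 4 with the block gave 1402, 1536, 1644 and 1826 higher and 977, 1072, 1220 and 1395 lower. Of the group-only fits without 1 library, those with a lower count under 324 by over 1.5 times gave 183 (primary library 1 left out) and 186, 170, 204 and 158 (secondary libraries 1 to 4 left out).

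In the intracellular list, 1 gene was lower in the main test, 9 with the block, 0 with library size alone, 6 with DESeq2, 9 with DESeq2 and the block, 3 with the length offset and 21 with that offset and the block. Over all genes, the lower counts in the same order were 324, 1964, 168, 705, 1943, 460 and 2400. With the length offset and the block, 21 of 56 was a larger share than 2400 of all 16788 genes. Leaving out 1 library gave 0 to 1 lower, and 1 animal with the block 5 to 7 lower and 0 to 1 higher. Each count without a library or an animal rests on fewer libraries. For the other alternatives the cause was not tested.

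Beside LOC121427308, the other group-only calls were lost under some settings. LOC121428087 had an adjusted p of 0.0679 with no filter, 0.0518 with the CPM filter and 0.0607 with the length offset. LOC121429921 had 0.106 with library size alone and 0.0547 with no filter, and LOC121405824 had 0.136 with library size alone (edgeR). The ephrin type-B receptor 2-like LOC121427472 was called with DESeq2 and the block (adjusted p = 0.0325). Signs changed, with no call, for LOC121425598 (0.07 with library size alone), LOC121408625 (-0.01 with DESeq2, -0.00 with no filter, -0.12 and -0.08 with the length offset without and with the block, -0.09 to 0.23 without 1 library, and -0.11 without animal 1 and with the block) and LOC121428787 (-0.03 and -0.04 with the length offset without and with the block, -0.03 to 0.17 without 1 library, -0.01 without animal 4 and with the block).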

Other observations

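Ligand domains also occur in genes with other names. The table held 4 genes with a fibroblast growth factor domain, of which 2 carry such a name. LOC121413828, uncharacterized, had 3.01, 2.39, 1.79 and 4.59 CPM in primary spines and 7.08, 3.86, 2.88 and 4.74 CPM in secondary spines (did not pass, 0.65 ± 0.41, edgeR adjusted p = 0.476), and LOC121406434 had 0 reads. The uncharacterized LOC121406966, the other gene with a PDGF/VEGF domain, had 21.2 ± 1.76 CPM in primary spines and 18.2 ± 1.62 CPM in secondary spines (-0.22 ± 0.14, edgeR adjusted p = 0.503). Of 2 genes with an insulin domain, LOC121406148 had 0 reads, and LOC121405841, to which the table gives the name of a plant seed protein, had 7.80 ± 1.86 and 4.57 ± 2.07 CPM (-0.77 ± 0.36, edgeR adjusted p = 0.296, and 0.0409 with the animal as block).

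A further list by name patterns, chiefly Tie and angiopoietin names, held 48 genes. ROS, Ror, pro-epidermal growth factor and hepatocyte growth factor names were among the rest. The patterns also caught names that are neither receptor nor ligand, namely the substrate LOC121422516 and the activator LOC121426646 named for hepatocyte growth factor, which were tested and not called, and angiopoietin-related proteins. Of 25 genes tested, 1 was higher and 0 lower with group only (4%, against 7.81% of all genes), and 3 were higher and 7 lower with the block (40%, against 24.1%). By direction, 12.4% of all genes were called higher and 11.7% lower with the block. The gene called higher with group only was the angiopoietin-4-like LOC121420627, which has a fibrinogen domain. Its Swiss-Prot match is fibrinogen C domain-containing protein 1-B. Its levels were 0, 0.199, 0.422 and 0.107 CPM in primary spines and 2.71, 2.85, 1.99 and 1.14 CPM in secondary spines, from 7 and 89 reads. It passed the filter on low counts only through the secondary libraries and so had to differ, and its call is a description. It is also 1 of the 3 called higher with the block. Called lower with the block were, among others, the angiopoietin-1 receptor-like LOC121423497, with 25.5 ± 13.2 and 11.3 ± 5.18 CPM (blocked log2 fold change -1.16 ± 0.15, edgeR adjusted p = 0.00164), and LOC121423718, with 87.2 ± 14.2 and 64.3 ± 5.93 CPM (-0.43 ± 0.09, edgeR adjusted p = 0.0123). LOC121420341, also named angiopoietin-1 receptor-like, had 29.4 ± 10.6 and 42.9 ± 10.5 CPM and was called higher with the block (0.58 ± 0.12, edgeR adjusted p = 0.0114). In Swiss-Prot LOC121420341 matched Cad96Ca, and LOC121423718, which has a kinase domain, matched the receptor Tie-1. LOC121423497 had no match and a fibronectin type III domain alone. It ends at 25488422 on chromosome 11, and LOC121423498, also called lower with the block, starts at 25490283 on the same strand. Whether these are pieces of 1 gene was not tested.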
